A study of Mus musculus with 12 samples.

Results

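The comparison of livers under IL-1R1 blockade alone (antiIL1R1) with control livers (isotype) used 6 of the 12 libraries of the study, 3 per group, and every gene of the deposited tables. Members were chosen by their columns: the 3 libraries whose treatment label is anti-IL-1R1 antibody and the 3 whose label is isotype control (no treatment). The study measured poly(A)-selected RNA of whole liver from 12-week-old mice bearing pancreatic ductal adenocarcinoma, and all 4 of its groups carried the tumour. The other 6 libraries came from mice given an agonistic anti-CD40 antibody without (agoCD40) or with (Combo) anti-IL-1R1 antibody. The controls are called both isotype control and NoTx in the labels, which leaves unknown if an antibody was given to them. Dose, schedule, sex, strain, the tumour model and the time from treatment to sampling are not given in the sources used here, and there is no group without a tumour. The comparison therefore bears on IL-1R1 signalling present in tumour-bearing livers without the agonist, and not on what the tumour itself adds. If the controls had no antibody, blocking IL-1R1 cannot be told apart from giving an antibody at all.

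IL-1R1 is the receptor of the cytokines IL-1α and IL-1β. Ligand binding brings in the co-receptor encoded by Il1rap, and the adaptor MyD88, IRAK kinases and TRAF6 then activate NF-kB and MAP kinases. The antagonist encoded by Il1rn occupies the receptor without signalling, and the decoy receptor encoded by Il1r2 binds ligand without passing a signal. In liver the pathway is known for acute-phase proteins, which hepatocytes secrete in inflammation, with IL-6 acting through STAT3 beside it. IL-1 is also known for raising chemokines, endothelial adhesion molecules and the supply of neutrophils.

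With the blockade, genes of neutrophils, acute-phase proteins and resident macrophages mostly had lower levels, and genes of fatty acid synthesis and of antibody-secreting cells mostly had higher levels. Acute-phase and resident macrophage genes were on average also below isotype in agoCD40, without the blockade. Leaving out 1 control library, isotype 3, took the median log2 fold change of neutrophil genes from -1.42 to -0.46. For resident macrophage genes it went from -0.44 to -0.22. No single gene passed the threshold, an adjusted p under 0.05. The calprotectin gene S100a8 had the smallest p and a level 6.32-fold lower by the ratio of its mean CPM, counts scaled to library size. The receptor gene Il1r1 itself was lower in all 3 treated livers than in any control, and so it was in agoCD40. Groups did not separate in the transcriptome as a whole.

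Total estimated counts ranged from 18681390 to 26731306 per library in the 6 libraries, and of 56748 genes listed, 15465 passed the count filter and were tested. Levels below are CPM scaled by TMM, a correction for composition between libraries, and values of 3 libraries are given in the order 1, 2 and 3 of their labels. Fold changes are on the log2 scale, antiIL1R1 minus isotype, with a standard error (SE) from edgeR's quasi-likelihood test. The labels do not say that the libraries of a group are separate mice. The p-values then reflect differences among these libraries alone, which may be technical. Hepatocyte markers dominated each library, as the tissue label says: Alb alone took 4.88% to 5.63% of the counts. Of the exocrine pancreas markers, Pnlip and Prss2 had 0 counts in all 6 libraries. The remaining marker, Cela2a, had 10, 14 and 14 counts in isotype and 15, 35 and 12 in antiIL1R1.

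The whole transcriptome did not separate the groups. Over all genes tested, log2 CPM correlated with a median r of 0.961 for pairs across the groups (9 pairs, 0.936 to 0.978) and 0.959 for pairs within a group (6 pairs, 0.932 to 0.969). The closest pair, at 0.978, was antiIL1R1 1 with isotype 1. In a principal component analysis of the 6 libraries, none of the 5 components put the 3 antiIL1R1 libraries on one side of the 3 isotype libraries, and this was so for all genes, for the 500 most variable and without mitochondrial genes. Component 1 held 42.4% of the variance, with isotype 2 and antiIL1R1 2 at one end. The mitochondrial share of counts was 7.57%, 14.1% and 6.23% in isotype 1, 2 and 3, and 7.88%, 14.8% and 10.9% in antiIL1R1 1, 2 and 3, so it ran along component 1 in both groups. Isotype 3 stood apart from the other libraries on component 2 (19.6% of the variance).

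**Figure D1:**
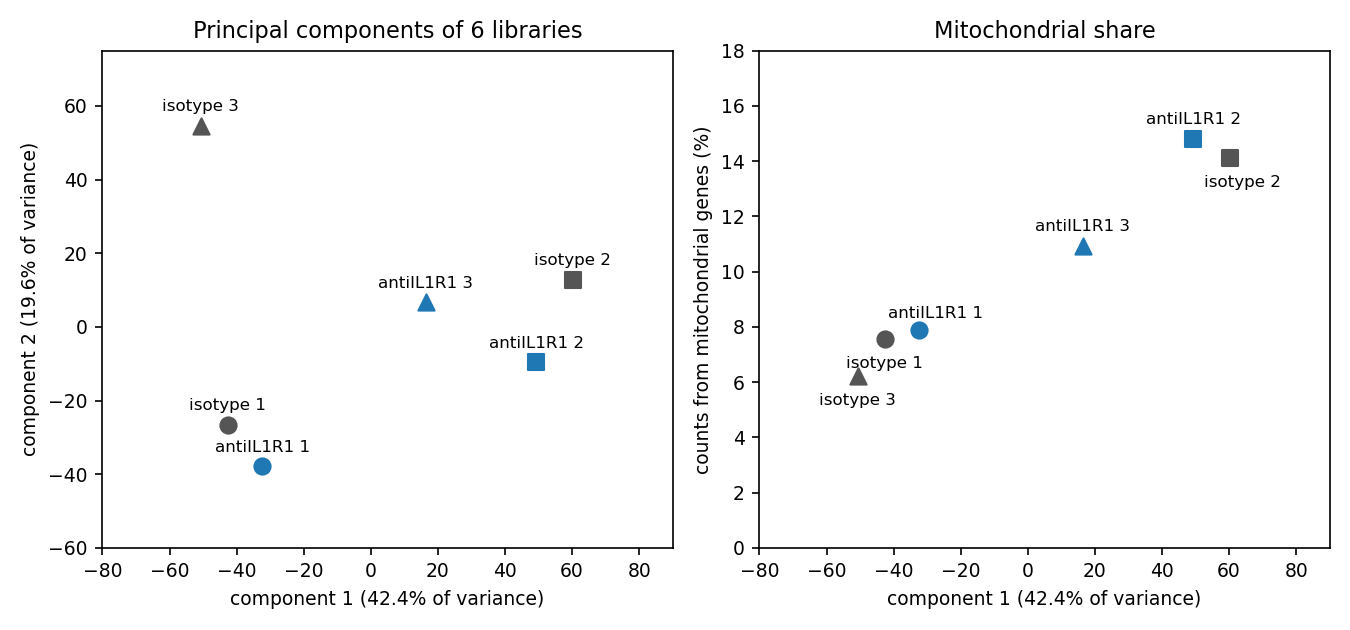
Left: each point is 1 library on principal components 1 and 2 of log2 CPM over all genes tested (isotype grey, antiIL1R1 blue, marker shape by library number). Right: component 1 against the percent of counts from mitochondrially encoded genes, where isotype 2 (14.1%) and antiIL1R1 2 (14.8%) lie together at the right and the groups are intermixed.

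Gene by gene, 0 of 15465 genes (0% of those tested) passed the threshold in edgeR's quasi-likelihood test, where the smallest Benjamini-Hochberg adjusted p was 0.987. At an unadjusted p under 0.05 there were 565 genes, of which 357 were lower in antiIL1R1 (2.31% of genes tested) and 208 higher (1.34%); 773 would be at that level by chance in independent genes. DESeq2 called 3 genes, all lower: S100a8 (adjusted p = 0.000179), S100a9 (adjusted p = 0.00111) and Ddit4 (adjusted p = 0.00111). Limma on log2(TPM + 1), TPM being deposited values scaled for length and depth, called 0, and edgeR without the filter on low counts called 63 genes, 23 higher and 40 lower. In 515 genes all 3 antiIL1R1 libraries lay below all 3 isotype libraries (3.33% of genes tested), and in 480 they lay above (3.1%). On the deposited TPM values the same count was 617 below and 273 above, so the balance of directions depended on the scale. The median SE was 0.28 on the log2 scale, and the median fold change over all genes was -0.02, with 53.6% of genes negative. These shares over all genes are the background for the counts of list members below.

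The data carried 1 library on which many single values rest. Isotype 3 had the highest level of the 3 control libraries for Saa1, Il1a, Il1b, Vcam1, Sgk1, Igfbp1, Adgre1 and many macrophage genes. Leaving it out left 377 genes at an unadjusted p under 0.05, 197 of them higher. Leaving out isotype 2 left 2001, 1051 of them higher, and leaving out antiIL1R1 1 left 1110. Of 95 genes examined for this, 34 lost over 33% of their fold change or changed sign without isotype 3, and the 6 that changed sign are given with that value below.

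The ligands and receptors of the IL-1 family come first, since they set what the antibody can act on. Il1r1 (ENSMUSG00000026072), the blocked receptor, measured 66.8, 81.6 and 53.7 CPM in isotype and 42.2, 44.2 and 38.6 in antiIL1R1. Every treated library was below every control. The fold change was -0.69 ± 0.19 (SE; 95% interval -1.1 to -0.29; unadjusted p = 0.00277, adjusted p = 0.987), and it lay between -0.83 and -0.53 under the 16 alternatives tried. An antibody acts on the protein, so this transcript does not check the labels. In agoCD40, without the blockade, Il1r1 measured 43.5, 29.5 and 44.9 CPM, also below every control.

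The ligand genes were low. Il1b (ENSMUSG00000027398), which encodes IL-1β, measured 7.45, 5.22 and 20.3 CPM in isotype and 5.46, 3.80 and 6.75 in antiIL1R1. The groups overlapped, and the fold change of -1.05 ± 0.58 went to -0.25 without isotype 3. Il1a (ENSMUSG00000027399), which encodes IL-1α, measured 6.59, 5.73 and 12.3 CPM against 3.69, 4.61 and 6.67, also overlapping, with a fold change of -0.72 ± 0.35 (-0.30 without isotype 3). The receptor antagonist gene Il1rn measured 2.57, 1.11 and 6.64 CPM against 1.59, 1.84 and 3.30 (log2 -0.63 ± 0.61), and its direction turned without isotype 3 (0.29). The 3 genes were all highest in isotype 3.

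The co-receptor gene Il1rap measured 122, 123 and 81.6 CPM in isotype and 133, 121 and 107 in antiIL1R1 (log2 0.14 ± 0.20; -0.03 without isotype 3). Per transcript length, the mean TPM of the isotype libraries was 52.2 ± 12.3 (SD, n = 3) for Il1rap, 15.6 ± 1.57 for Il1r1, 11.9 ± 10.1 for Il1b, 5.42 ± 3.09 for Il1a and 2.68 ± 2.68 for Il1rn. By that scale the co-receptor was above the receptor, while the ligands and the antagonist were not ordered beyond their spread. The decoy receptor gene Il1r2 had 4, 2 and 25 counts in isotype and 0, 0 and 9 in antiIL1R1, too few to be tested. Again isotype 3 and antiIL1R1 3 were the highest.

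Of the 21 ligands, antagonists and receptors in the list, 12 were tested. Their median fold change was -0.38, with 9 negative, 2 at an unadjusted p under 0.05 (both lower) and 1, Il1r1, without overlap. The median was -0.04 without isotype 3. Il18, the ligand of a related receptor, had 0.25 ± 0.19 and its binding protein gene Il18bp -0.27 ± 0.23 (0.02 without isotype 3). The inhibitory receptor gene Sigirr was level between the groups (-0.00 ± 0.13), and the alarmin gene Il33 had -0.12 ± 0.48. Il1rl2, Il18r1 and Il18rap reached at most 1.67, 0.804 and 0.804 CPM in any of the 6 libraries, with SE from 0.83 to 1.08, and Il1rl2 changed sign without isotype 3 (from -0.50 to 0.33).

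Downstream, the 34 genes of receptor signal transduction (adaptors, kinases and NF-kB subunits) had a median of -0.13 (-0.05 without isotype 3), with 25 negative and 1, Rel, at an unadjusted p under 0.05. The NF-kB subunit gene Rel measured 6.70, 8.54 and 9.24 CPM in isotype and 4.41, 5.23 and 7.11 in antiIL1R1 (log2 -0.55 ± 0.25). Irak3, which encodes an inhibitory kinase of the pathway, had -0.66 ± 0.39 and the ubiquitin ligase gene Traf6 -0.39 ± 0.23. Nfkb2 had -0.51 ± 0.33, and 0.04 without isotype 3. Of the 15 tested genes of IL-1 processing and the inflammasome, 10 were negative, with a median of -0.23 and none at an unadjusted p under 0.05. Among them the ATP-gated channel gene P2rx7 had -0.78 ± 0.40 (-0.47 without isotype 3), the sensor gene Nlrp3 -0.70 ± 0.55 (0.03 without isotype 3) and the pore-forming gasdermin gene Gsdmd -0.23 ± 0.16.

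Genes that NF-kB or IL-1 induces were lower more often than higher. Of 28 tested of 40 in the list, 22 were negative, and 8 were lower and 1 higher at an unadjusted p under 0.05. In the list 7 lay wholly below and 2 wholly above the controls. Their median was -0.33, or -0.21 without isotype 3. Over all genes tested, 53.6% were negative, and 2.31% were lower and 1.34% higher at that p. Wholly below lay 3.33% of all genes and wholly above 3.1%. Vcam1, an adhesion molecule of activated endothelium, measured 15.1, 15.8 and 40.9 CPM in isotype and 10.4, 10.2 and 14.6 in antiIL1R1 (log2 -1.03 ± 0.37, and -0.40 without isotype 3). The groups did not overlap, though isotype 3 stood far above the other controls.

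Steap4, a metalloreductase that IL-1 and IL-6 induce in hepatocytes, measured 148, 119 and 239 CPM against 111, 69.6 and 120 (log2 -0.75 ± 0.25, and -0.41 without isotype 3), with a narrow overlap. The neutrophil-attracting chemokine gene Cxcl2 measured 0.75, 1.00 and 1.11 CPM against 0.228, 0.286 and 0.0794 (log2 -2.25 ± 0.84), all treated libraries below the controls. Cxcl1, which encodes another chemokine for neutrophils and was picked after its values were seen, measured 25.8, 43.4 and 27.3 CPM against 18.6, 42.0 and 54.4 (log2 0.25 ± 0.42). Its direction turned without antiIL1R1 3 (-0.09), so the 2 chemokine genes did not share a pattern. Nfkbia, which encodes the feedback inhibitor of NF-kB and was also picked later, measured 46.4, 50.9 and 49.2 CPM against 43.3, 39.9 and 37.2 (log2 -0.28 ± 0.13), a small difference with no overlap.

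Positive acute-phase proteins, which hepatocytes make more of in inflammation, were mostly on the lower side. All 45 genes of the list were tested, of which 38 were negative, with a median of -0.43. At an unadjusted p under 0.05 there were 19 lower, against 2.31% of all genes tested, and 0 higher, against 1.34%. In this list 10 lay wholly below the controls (22.2%, against 3.33% of all genes) and 1 wholly above (2.22%, against 3.1%). The median stayed between -0.56 and -0.34 under the alternatives, including -0.34 without isotype 3 and -0.39 with the mitochondrial percent as a covariate. The mean level of the list nevertheless overlapped between groups: relative to the isotype mean it was -0.23, 0.02 and 0.20 in isotype and -0.71, -0.53 and -0.21 in antiIL1R1, where only antiIL1R1 3 reached the control range. In agoCD40, without the blockade, it was -0.48, -0.78 and -0.42, below every isotype library. A level under isotype was thus not particular to the blockade, and its cause was not tested.

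Saa1 (ENSMUSG00000074115), a serum amyloid A protein carried on lipoproteins, measured 217, 304 and 643 CPM in isotype and 82.6, 86.9 and 192 in antiIL1R1. The highest treated library was below the lowest control. The fold change was -1.69 ± 0.44 (95% interval -2.64 to -0.73; unadjusted p = 0.00221), or -1.11 without isotype 3. Its neighbour Saa2, chosen for its likeness to Saa1 after its values were seen, measured 48.7, 77.8 and 306 CPM against 23.6, 21.4 and 69.7 (log2 -1.91 ± 0.62; -0.72 without isotype 3), with an overlap from antiIL1R1 3. The counting could split reads between these near-identical copies, so their separate levels are uncertain.

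The promoters of these genes and of the calprotectin pair are shown because the genes of each pair had alike values. The 250 bases before the start are given from RefSeq (GRCm38.p6, an earlier build than the GRCm39 of the deposited tables), 5′ to 3′ on the gene's strand, with matches to the C/EBP motif TTGCNNAA in capitals. They lie at chr7:46742981-46743230 (minus strand) for Saa1, chr7:46751583-46751832 (plus strand) for Saa2, chr3:90668821-90669070 (plus strand) for S100a8 and chr3:90695722-90695971 (minus strand) for S100a9.
Saa1: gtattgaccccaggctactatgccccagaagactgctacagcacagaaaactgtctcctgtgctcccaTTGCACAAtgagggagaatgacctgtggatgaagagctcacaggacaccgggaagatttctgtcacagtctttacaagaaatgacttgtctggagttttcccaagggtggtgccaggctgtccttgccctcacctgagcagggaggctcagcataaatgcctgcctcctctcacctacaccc
Saa2: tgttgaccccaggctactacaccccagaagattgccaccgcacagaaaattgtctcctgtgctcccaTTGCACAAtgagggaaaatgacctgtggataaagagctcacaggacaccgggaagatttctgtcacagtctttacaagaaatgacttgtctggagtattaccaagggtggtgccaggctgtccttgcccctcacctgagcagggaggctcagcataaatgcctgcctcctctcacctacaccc
S100a8: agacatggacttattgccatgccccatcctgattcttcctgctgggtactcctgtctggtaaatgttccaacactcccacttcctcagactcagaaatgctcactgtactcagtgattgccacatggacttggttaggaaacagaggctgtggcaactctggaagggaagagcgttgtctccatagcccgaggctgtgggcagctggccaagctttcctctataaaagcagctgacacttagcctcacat
S100a9: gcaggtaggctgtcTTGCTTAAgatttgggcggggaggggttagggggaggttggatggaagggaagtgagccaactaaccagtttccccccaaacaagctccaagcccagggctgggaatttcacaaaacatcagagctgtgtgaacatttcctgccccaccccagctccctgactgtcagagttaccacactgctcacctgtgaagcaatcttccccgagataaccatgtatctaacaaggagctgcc
In a gapped alignment, Saa1 and Saa2 shared 238 bases of the 250-base window (95.2%). Each held the match TTGCACAA, at bases 182 to 175 before the start in Saa1 and 183 to 176 in Saa2. S100a9 held TTGCTTAA at bases 236 to 229 and S100a8 no match. In a gapped alignment, S100a8 and S100a9 shared 133 bases of the 250-base window (53.2%). What unrelated promoters share in such an alignment was not computed, so this value does not show likeness. On both strands, 9.56% of 32851 promoters of the same length hold the C/EBP motif. Of the other motifs searched, NF-kB as GGNNTTTCC (4.93% of promoters), STAT as TTCNNNGAA (7.02%) and AP-1 as TGANTCA (6.75%) were in none of the 4, and the TATA box TATAAA (12.4%) was in S100a8 alone, at bases 30 to 25. A match describes the letters only, and its absence in this window says nothing of the factor. Other spellings and longer forms of these motifs were not searched.

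Lbp and Fgb had smaller SE than Saa1. Lbp (ENSMUSG00000016024), which encodes the lipopolysaccharide-binding protein, measured 112, 82.0 and 154 CPM in isotype and 64.4, 67.1 and 71.8 in antiIL1R1 (log2 -0.77 ± 0.20, and -0.51 without isotype 3; unadjusted p = 0.00214). Fgb, the fibrinogen beta chain, measured 4495, 5662 and 6031 CPM against 3540, 3693 and 4208 (log2 -0.50 ± 0.16; unadjusted p = 0.00759). In both genes the groups did not overlap. In agoCD40, without the blockade, the means of Lbp and Fgb were 70.7 and 3319 CPM, against 116 and 5396 in isotype. Mt2 (ENSMUSG00000031762), a zinc-binding metallothionein, had the lowest fold change after S100a8 among the 10 lowest genes of the naming rule, with 85.0, 251 and 253 CPM against 20.4, 32.5 and 43.0 (log2 -2.62 ± 0.68, 95% interval -4.08 to -1.16). Even the lowest control, isotype 1, was above every treated library.

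Haptoglobin (Hp) and lipocalin 2 (Lcn2), named after their values were seen, were also on the lower side but overlapped. Hp measured 3930, 5755 and 6016 CPM against 2181, 3742 and 4243 (log2 -0.63 ± 0.28), and Lcn2 16.5, 55.2 and 61.8 against 3.32, 8.0 and 28.9 (log2 -1.73 ± 0.71). The negative acute-phase proteins, whose synthesis falls in inflammation, lay the other way: 15 of 19 were positive, with a median of 0.18 (0.09 without isotype 3), 0 at an unadjusted p under 0.05 and 3 wholly above the controls (15.8%, against 3.1% of all genes tested). The thyroxine-binding globulin gene Serpina7 had 0.64 ± 0.30, the corticosteroid-binding globulin gene Serpina6 0.42 ± 0.20 and Igfals, which encodes a carrier subunit of IGF-1, 0.36 ± 0.21. Transferrin (Trf) was at -0.36 ± 0.19 (-0.13 without isotype 3) and overlapped.

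The IL-6, STAT3 and C/EBP list, the other arm of acute-phase control, was near the background: 16 of 25 negative, with a median of -0.14, 2 lower and 1 higher at an unadjusted p under 0.05. Stat3 itself measured 160, 128 and 204 CPM in isotype and 116, 96.8 and 139 in antiIL1R1 (log2 -0.48 ± 0.21, and -0.29 without isotype 3), and Cebpd, a transcription factor of acute-phase genes, 25.6, 37.0 and 26.7 against 14.1, 19.1 and 27.1 (log2 -0.57 ± 0.25). Cish, a cytokine-induced inhibitor of STAT5 signalling, lay the other way, at 7.56, 6.28 and 8.49 CPM against 16.5, 13.5 and 20.7 (log2 1.18 ± 0.31; unadjusted p = 0.00236), and its groups did not overlap. Junb, an AP-1 subunit, had 0.83 ± 0.39 with an overlap.

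**Figure D2:**
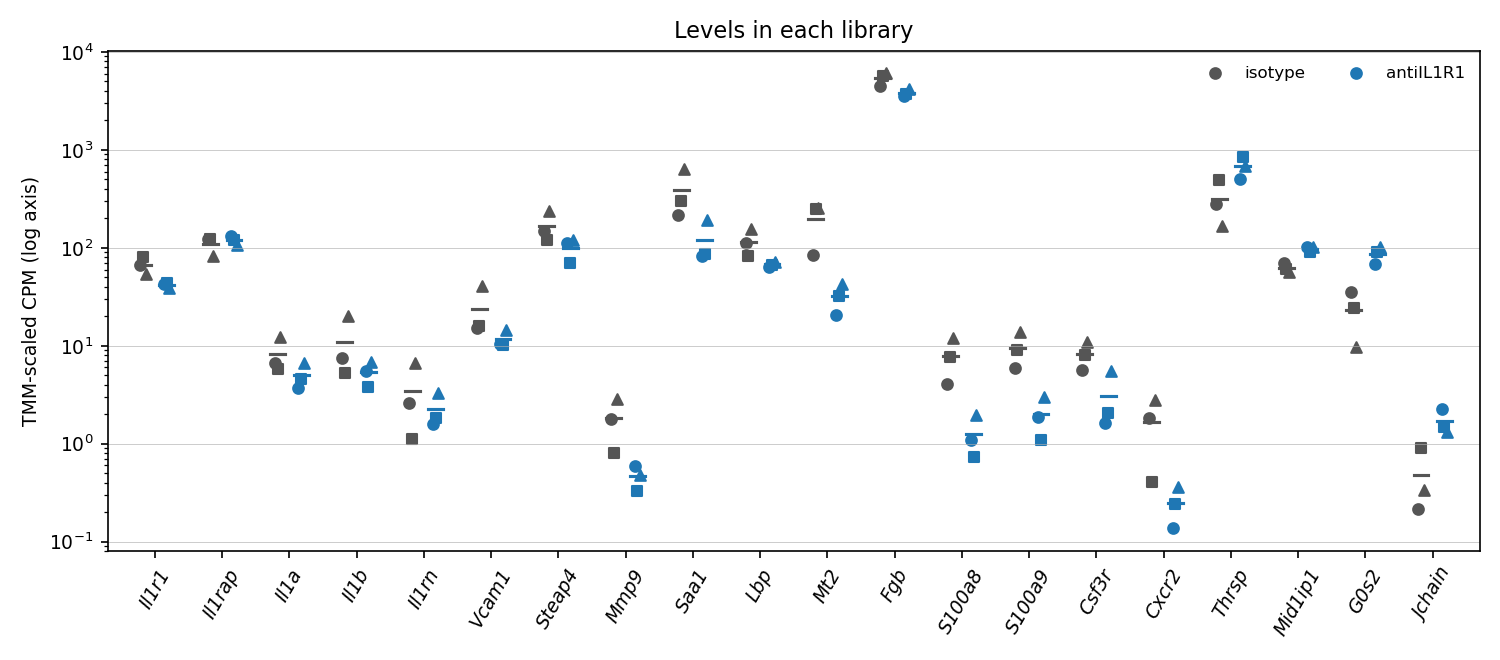
TMM-scaled CPM (log axis) of 20 genes in each of the 3 isotype (grey) and 3 antiIL1R1 (blue) libraries, marker shape by library number and a bar at the group mean. Il1r1, Saa1, Mt2, S100a8 and S100a9 lie lower in every antiIL1R1 library, Il1b and Il1rn overlap, and G0s2, Mid1ip1 and Jchain lie higher in every antiIL1R1 library.

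Neutrophil genes had the lowest median of the 30 lists, -1.42 over 24 tested of 31 (-1.42 also with Ngp and Mpo at the bound that 0 counts allow and Camp left out). Of these, 21 were negative, and 12 were lower and 0 higher at an unadjusted p under 0.05, against 2.31% and 1.34% of all genes tested. Wholly below the controls lay 7 (29.2%, against 3.33% of all genes tested). The list level relative to the isotype mean was -0.41, -0.24 and 0.65 in isotype and -1.41, -1.39 and -0.42 in antiIL1R1. These ranges did not overlap, but antiIL1R1 3 lay just below isotype 1. The median was -0.46 without isotype 3 and -2.07 without antiIL1R1 3. In bulk tissue, fewer neutrophils and less RNA per neutrophil cannot be told apart.

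S100a8 (ENSMUSG00000056054) and S100a9 (ENSMUSG00000056071), whose promoters are shown above, encode the 2 subunits of calprotectin, an abundant protein of neutrophils and monocytes. S100a8 measured 4.07, 7.74 and 12.0 CPM in isotype and 1.09, 0.735 and 1.95 in antiIL1R1. S100a9 measured 5.90, 9.09 and 13.8 CPM against 1.87, 1.1 and 3.02. For both genes all treated libraries were below all controls, with fold changes of -2.66 ± 0.49 (95% interval -3.71 to -1.6; unadjusted p = 0.000119) and -2.26 ± 0.45 (-3.24 to -1.29; unadjusted p = 0.000239). Under the alternatives these stayed between -3.13 and -2.22 for S100a8 and between -2.70 and -1.90 for S100a9.

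Receptors that guide and sustain neutrophils were alike. Csf3r, the receptor of the growth factor G-CSF, measured 5.63, 7.99 and 10.9 CPM in isotype and 1.64, 2.04 and 5.48 in antiIL1R1 (log2 -1.42 ± 0.45). Cxcr2, the receptor of CXCL1 and CXCL2, measured 1.82, 0.402 and 2.82 CPM against 0.137, 0.245 and 0.357 (log2 -2.74 ± 0.78). In neither did the groups overlap, though antiIL1R1 3 was close to isotype 1 in Csf3r and antiIL1R1 3 to isotype 2 in Cxcr2. Retnlg, a resistin-like protein of neutrophils, measured 1.39, 1.81 and 3.30 CPM against 0, 0.204 and 0.873 (log2 -2.56 ± 0.81). Slpi, a protease inhibitor, measured 1.61, 2.51 and 4.23 CPM against 0.182, 0.245 and 1.19 (log2 -2.35 ± 0.75), and Mmp9, gelatinase B, 1.77, 0.804 and 2.89 against 0.592, 0.327 and 0.476 (log2 -1.97 ± 0.67). Both lay below every control, which the rule for the largest fold changes required of them.

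Granule genes of neutrophil precursors and the lineage marker Ly6g were at the limit of the depth. Ngp, a granule protein, summed to 27 counts in isotype and 0 in antiIL1R1, at least 9.84-fold lower with the group's sum set to a floor of 3 counts. Mpo, myeloperoxidase, had 7 and 0 counts, at least 2.55-fold lower. Camp, of the same list, went the other way with 0 and 1 counts, and the elastase gene Elane overlapped (log2 -1.57 ± 1.12). Ly6g had 10 counts in isotype, all from isotype 3, and 4 in antiIL1R1, all from antiIL1R1 3. The collagenase gene Mmp8 overlapped (log2 -0.61 ± 0.71, and -0.34 without isotype 3). The floor leaves out the error of the isotype count. The 95% counting interval of the ratio of scaled counts, antiIL1R1 over isotype, reached up to 0.134 for Ngp and 0.635 for Mpo, so it allows smaller folds than these.

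Monocyte and recruited macrophage genes were lower in the same direction with more overlap: 29 of 31 tested were negative, with a median of -0.69, 8 lower and 0 higher at an unadjusted p under 0.05 and 7 wholly below. Among all genes tested, 2.31% were lower and 1.34% higher at that p, and 3.33% lay wholly below. The list level was -0.50, -0.30 and 0.80 in isotype and -1.03, -0.88 and -0.16 in antiIL1R1. The median lay between -1.26 and -0.14 under the alternatives, the latter without isotype 3. Ms4a6c, a membrane protein of monocytes, measured 2.36, 1.66 and 6.16 CPM against 1.14, 0.939 and 1.31 (log2 -1.59 ± 0.49, and -0.83 without isotype 3). Trem2, a lipid-sensing receptor of macrophages, measured 0.804, 1.00 and 1.85 CPM against 0.273, 0.531 and 0.199 (log2 -1.86 ± 0.67). Chil3, a secreted chitinase-like protein, reached at most 1.08 CPM in any library (log2 -2.58 ± 0.87, and -1.41 without isotype 3).

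Kupffer cells are the resident macrophages of liver. Of their 24 genes, 23 were negative, with a median of -0.44 (between -0.60 and -0.22 under the alternatives, the latter without isotype 3), and 5 were lower and 1 higher at an unadjusted p under 0.05. The shares of all genes tested at that p were 2.31% lower and 1.34% higher. The list level did not overlap between the groups: -0.20, -0.18 and 0.38 in isotype against -0.70, -0.42 and -0.31 in antiIL1R1. In agoCD40, without the blockade, it was -1.01, -0.63 and -0.93, also below every isotype library. Clec4f, the lectin that defines them in mouse, measured 108, 104 and 139 CPM against 67.9, 102 and 98.0 (log2 -0.39 ± 0.22), and the complement receptor gene Vsig4 24.3, 26.5 and 39.6 against 19.7, 21.2 and 23.5 (log2 -0.49 ± 0.26). Both were below the controls in every treated library, by a narrow margin at the highest treated library. Without isotype 3 the fold changes were -0.25 and -0.24.

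Folr2, a folate receptor of resident macrophages, measured 16.3, 14.1 and 21.0 CPM against 9.01, 13.3 and 11.8 (log2 -0.59 ± 0.22). Cd5l, a secreted macrophage protein, had -0.79 ± 0.30, the macrophage marker Adgre1 -1.29 ± 0.47, the scavenger receptor gene Marco -0.73 ± 0.45 and the phosphatidylserine receptor gene Timd4 -0.46 ± 0.43, each with an overlap. Without isotype 3 these were -0.45, -0.79, -0.29 and -0.29. Id3, a transcriptional regulator needed by Kupffer cells, was the only member on the higher side (38.9, 45.6 and 35.0 CPM against 37.6, 62.9 and 83.4; log2 0.62 ± 0.23). Arginase 2 (Arg2) had 46 counts in isotype and 1 in antiIL1R1, a ratio of scaled counts of 0.0199 (95% interval 0.000493 to 0.116, counting error only).

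Antibody genes mostly lay the other way, at low levels. Of 34 tested B-cell and plasma-cell genes, 27 were positive, with a median of 0.48 (0.45 with Ighg3 at its bound, 0.11 on log2(TPM + 1) and 0.28 on log2(TPM + 0.1)), 3 higher and 0 lower at an unadjusted p under 0.05 and 5 wholly above. Among all genes tested, 1.34% were higher and 2.31% lower at that p, and 3.1% lay wholly above. The list level was -0.16, 0.26 and -0.10 in isotype and 0.34, 0.37 and 0.65 in antiIL1R1, with no overlap. Jchain (ENSMUSG00000067149), the joining chain of polymeric antibodies, measured 0.214, 0.904 and 0.334 CPM against 2.28, 1.47 and 1.31 (log2 1.80 ± 0.45, 95% interval 0.82 to 2.77), from 31 counts in isotype and 119 in antiIL1R1. The heavy-chain gene Igha measured 0.643, 3.47 and 0.408 CPM against 3.32, 7.55 and 4.37 (log2 1.78 ± 0.63) and the lambda light-chain gene Iglc3 0, 0.201 and 0.111 against 0.501, 0.939 and 0.754 (log2 2.73 ± 0.71). Isotype 2 was the highest control for each of these genes. The heavy-chain gene Ighg2c was on the lower side, with 9 counts in isotype and 1 in antiIL1R1, a ratio of scaled counts of 0.102 (95% interval 0.00232 to 0.733, counting error only). Cd79a, part of the B-cell receptor, measured 1.5, 1.00 and 1.59 CPM against 1.55, 1.84 and 2.22, and overlapped.

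Other cell types had library levels that overlapped. T-cell and NK-cell genes had a median of -0.36 (0.15 without isotype 3; 20 of 28 negative; 0 lower and 1 higher at an unadjusted p under 0.05), the single gene being Nkg7, a granule protein of cytotoxic cells (log2 1.08 ± 0.40). Dendritic-cell and class II genes had a median of -0.15 (0.37 without isotype 3) and stellate-cell and matrix genes -0.21 (0.22), so both turned direction. Interferon-stimulated genes had 0.01 (-0.03 without isotype 3) and liver endothelial genes 0.00 (0.20). Bile duct and carcinoma epithelium genes had 0.14, and Krt19, a keratin of ducts and of pancreatic carcinoma, measured 0.322, 1.11 and 0.223 CPM against 3.64, 1.51 and 0.992 (log2 1.90 ± 0.69), with an overlap. Of 25 exocrine pancreas genes only 3 were tested, with a median of -0.02.

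**Figure D3:**
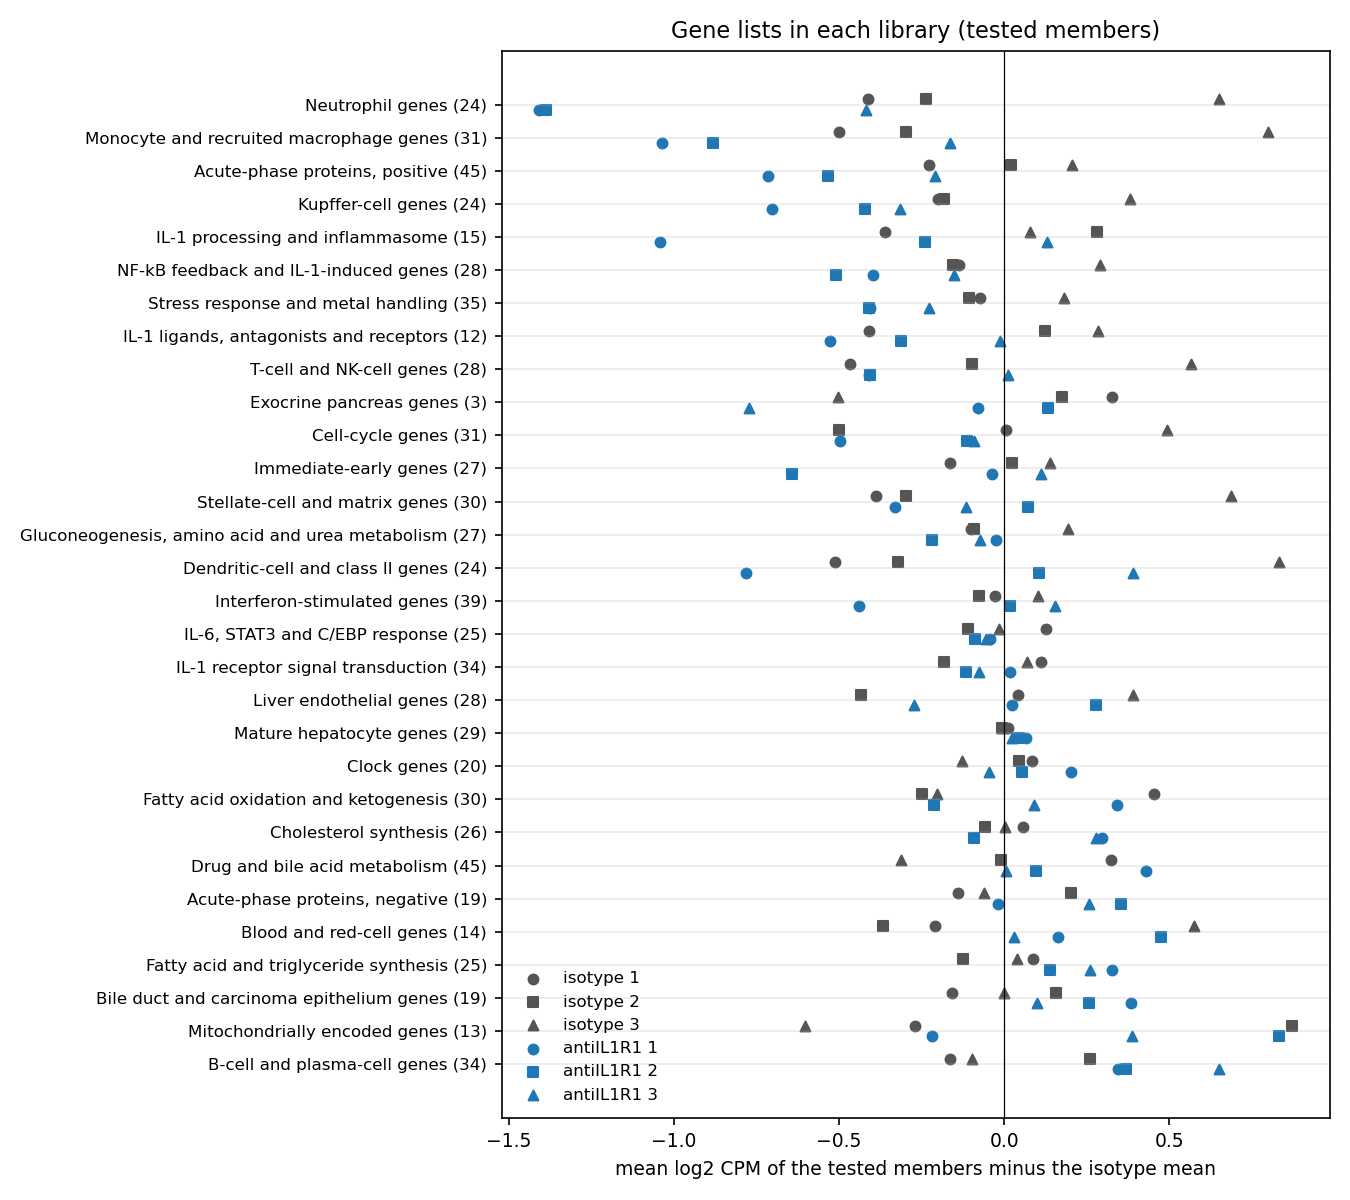
Mean log2 CPM of the tested members of 30 gene lists (number tested in brackets) in each isotype (grey) and antiIL1R1 (blue) library, minus the isotype mean, marker shape by library number. Of the 30 lists, 3 had every antiIL1R1 library below every isotype library (neutrophil, Kupffer cell, stress response) and 3 above (B cell and plasma cell, fatty acid synthesis, mature hepatocyte), while 24 overlapped.

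Fatty acid and triglyceride synthesis was the metabolic list with library levels apart: 0.09, -0.13 and 0.04 in isotype against 0.33, 0.14 and 0.26 in antiIL1R1. Of its 25 tested genes, 18 were positive, with a median of 0.22 (0.09 to 0.32 under the alternatives), 4 higher and 1 lower at an unadjusted p under 0.05, and 8 lay wholly above and 2 wholly below. Of all genes tested, 1.34% were higher and 2.31% lower at that p, and 3.1% lay wholly above and 3.33% wholly below. Mid1ip1 (ENSMUSG00000008035), which activates acetyl-CoA carboxylase, measured 69.6, 60.8 and 57.1 CPM against 101, 90.1 and 101 (log2 0.64 ± 0.16, 95% interval 0.29 to 0.99; unadjusted p = 0.00166). Its relative Thrsp (ENSMUSG00000035686) measured 279, 493 and 168 CPM against 508, 845 and 690 (log2 1.12 ± 0.37). Elovl6, a fatty acid elongase, measured 54.5, 51.7 and 43.6 CPM against 107, 74.4 and 67.3 (log2 0.73 ± 0.27). In all 3 genes the treated libraries were wholly above.

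The lipid genes among the highest fold changes were of the same kind. G0s2, an inhibitor of triglyceride lipase, measured 35.2, 24.3 and 9.68 CPM against 68.5, 90.2 and 101 (log2 1.91 ± 0.53). Angptl8, an insulin-responsive regulator of lipoprotein lipase, measured 62.0, 62.6 and 39.8 CPM against 126, 262 and 125 (log2 1.64 ± 0.60). Insig2, an endoplasmic reticulum protein that restrains lipogenic transcription, was lower in all 3, at 104, 69.9 and 98.6 CPM against 62.9, 55.1 and 68.0 (log2 -0.55 ± 0.17; unadjusted p = 0.00747).

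In cholesterol synthesis 23 of 26 genes were positive, with a median of 0.18, 3 higher and 0 lower at an unadjusted p under 0.05 and 7 wholly above. Of all genes tested, 1.34% were higher and 2.31% lower at that p, and 3.1% lay wholly above. The list level of antiIL1R1 2 (-0.09) nevertheless lay below all 3 controls (-0.06 to 0.06) while those of antiIL1R1 1 and 3 lay above. The median was 0.01 on log2(TPM + 1) and on log2(TPM + 0.1). Fdps, farnesyl diphosphate synthase, measured 205, 205 and 219 CPM against 330, 264 and 275 (log2 0.47 ± 0.21). Insig1, a sterol sensor partner, had 0.42 ± 0.19, and the lanosterol synthase gene Lss 0.40 ± 0.18, which was -0.08 on log2(TPM + 1). The desaturase gene Sc5d had 0.29 ± 0.15. On the TPM scale the median of all genes was itself lower, at -0.10 with a pseudocount of 1 and -0.15 with 0.1.

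Other hepatocyte programmes were near 0. Fatty acid oxidation had a median of 0.03, clock genes 0.09 (-0.02 without isotype 3) and gluconeogenesis with amino acid and urea metabolism -0.12 (0.05 without isotype 3). Within the last, Igfbp1, an insulin-repressed secreted protein, measured 416, 278 and 825 CPM against 262, 141 and 286 (log2 -1.14 ± 0.40), with an overlap, and the tyrosine aminotransferase gene Tat had -0.44 ± 0.24. Without isotype 3 these were -0.60 for Igfbp1 and -0.04 for Tat. Drug and bile acid metabolism had a median of 0.16 (34 of 45 positive, and 0.03 without isotype 3), with the murine bile acid hydroxylase gene Cyp2c70 at 231, 193 and 237 CPM against 319, 277 and 259 (log2 0.37 ± 0.14). Mature hepatocyte genes had 0.08, with list levels apart by a narrow margin (-0.01 to 0.01 against 0.02 to 0.07). Their median was -0.06 on log2(TPM + 1) and on log2(TPM + 0.1), so its direction depended on the scale. Foxa2, a hepatocyte transcription factor, measured 13, 7.23 and 9.68 CPM against 17.8, 16.7 and 16.4 (log2 0.77 ± 0.21; unadjusted p = 0.00344). Mitochondrially encoded genes had a median of 0.25 (0.00 without isotype 3), following the shares given above.

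Stress response and metal handling also had library levels wholly lower: -0.07, -0.11 and 0.18 in isotype against -0.41, -0.41 and -0.23 in antiIL1R1. Its median was -0.17, with 24 of 35 negative, 7 lower and 1 higher at an unadjusted p under 0.05. At that p, 2.31% of all genes tested were lower and 1.34% higher. In agoCD40, without the blockade, the list level was -0.48, -0.53 and -0.53. Ddit4 (ENSMUSG00000020108), an inhibitor of mTORC1 that stress and glucocorticoids induce, measured 20.9, 20.8 and 41.1 CPM against 7.10, 5.51 and 9.29 (log2 -1.92 ± 0.37, 95% interval -2.71 to -1.13; unadjusted p = 0.000165). Sgk1, a kinase that glucocorticoids induce, measured 36.6, 39.7 and 91.6 CPM against 24.2, 29.7 and 28.3 (log2 -1.03 ± 0.31, and -0.47 without isotype 3). Slc39a14, a zinc and iron importer that inflammation induces, measured 264, 224 and 291 CPM against 209, 123 and 150 (log2 -0.69 ± 0.22). None of the 3 overlapped.

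The remaining genes of largest fold change by the naming rule were of mixed kinds. On the higher side these were Lingo4 (log2 1.96 ± 0.63), Ell3 (1.51 ± 0.41), the major urinary protein gene Mup2 (1.49 ± 0.53, and 0.99 without isotype 3), Chrna4 (1.34 ± 0.60), Nrep (1.33 ± 0.49) and Cphx1 (1.19 ± 0.48). Mup2 has near-identical paralogs, so its level is uncertain. On the lower side they were the angiotensin-converting enzyme gene Ace (-1.70 ± 0.74, and -0.81 without isotype 3) and Gpm6a, a membrane glycoprotein (-1.68 ± 0.55). Apart from Mup2, Chrna4 and Nrep, none exceeded the 3.89 CPM of Ace in isotype 3 in any of the 6 libraries.

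The same blockade was also measured with the agonist present, in Combo against agoCD40, which shares no library with the comparison above. There edgeR's quasi-likelihood test called 1 of 15465 genes (0.00647%), the rhythmically expressed nocturnin gene Noct (log2 2.81 ± 0.34, Combo minus agoCD40; adjusted p = 0.0301). Over all genes tested, 39.5% had the same sign in both comparisons. The share was 30 of 45 (66.7%) for positive acute-phase proteins, 17 of 25 (68%) for fatty acid synthesis and 14 of 20 (70%) for clock genes. It was 7 of 31 (22.6%) for monocyte and macrophage genes, 6 of 24 (25%) for Kupffer-cell genes and 4 of 26 (15.4%) for cholesterol synthesis.

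By list medians, neutrophil genes were at -1.42 without the agonist and -0.00 with it, and positive acute-phase proteins at -0.43 and -0.17. Kupffer-cell genes were at -0.44 and 0.31, and monocyte and macrophage genes at -0.69 and 0.39. S100a8 measured 21.4, 13 and 11.8 CPM in agoCD40 and 7.58, 18.9 and 10.6 in Combo (log2 -0.32 ± 0.43), so the groups overlapped there. Saa1 measured 143, 82.4 and 190 CPM in agoCD40 and 99.6, 80.1 and 59.5 in Combo (log2 -0.80 ± 0.43). The test of the difference between the 2 blockade effects did not call either gene (adjusted p = 0.467 for S100a8 and 0.745 for Saa1).

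**Figure D4:**
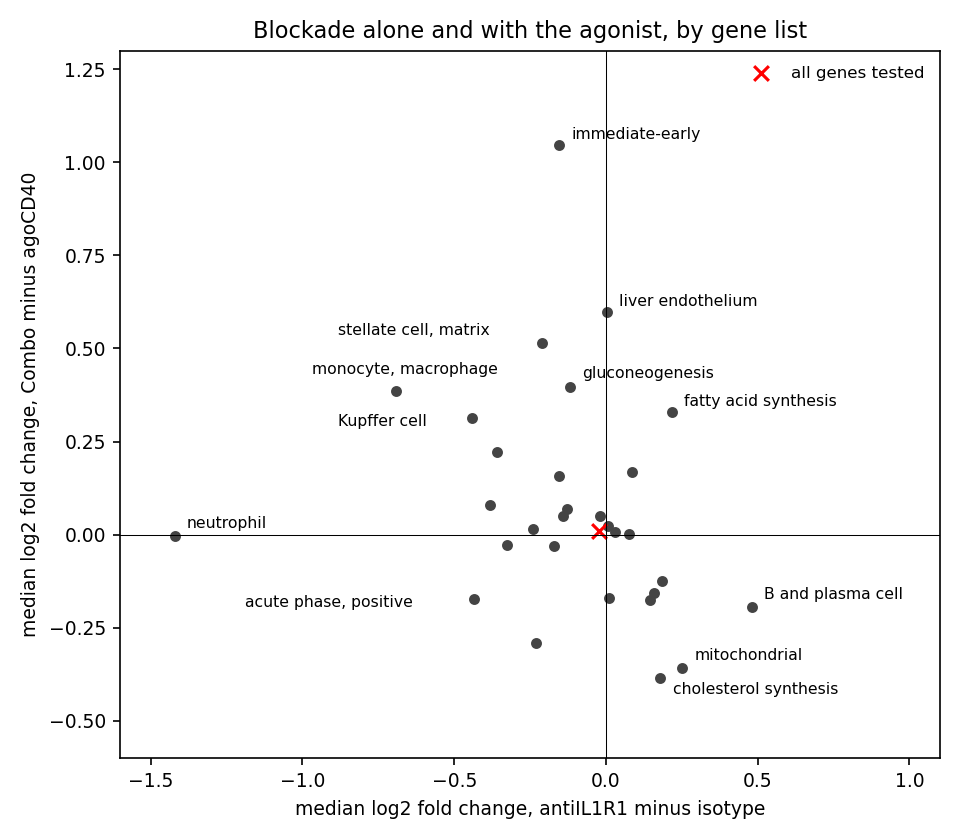
Each point is 1 of 30 gene lists: the median log2 fold change of its tested members for the blockade alone (horizontal) and with the agonist (vertical), with all genes tested as a red cross. Neutrophil genes lie far left at -1.42 and near 0 vertically, positive acute-phase proteins are negative in both, and Kupffer-cell and monocyte genes are negative alone and positive with the agonist.

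The difference of the blockade effects passed the threshold in 1 gene of 15465 (0.00647%), Ddit4. It measured 3.90, 5.38 and 6.44 CPM in agoCD40 and 22.2, 36.3 and 14.3 in Combo, so the blockade went with a lower level alone (-1.92) and a higher level with the agonist (2.21 ± 0.37). The difference was 4.13 ± 0.52 (adjusted p = 0.0422 in edgeR's quasi-likelihood test). It was not called without isotype 3 or without any 1 of the antiIL1R1 or agoCD40 libraries or Combo 2. The adjusted p over single libraries left out ran from 0.017 to 0.237.

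The next 4 genes by p did not pass (adjusted p = 0.104 each) but had the same shape of values. They were chosen by the p of that difference, so this shape, low agoCD40 levels included, is partly built into the choice. Gadd45g, a stress-induced growth arrest gene, measured 50, 98.9 and 69.2 CPM in isotype, 21.2, 18.5 and 38.7 in antiIL1R1, 9.51, 9.36 and 9.28 in agoCD40 and 22.4, 74.2 and 30.7 in Combo. Tsc22d3, a glucocorticoid-induced leucine zipper gene, had -0.56 ± 0.21 alone and 1.27 ± 0.21 with the agonist. Tnfrsf1b, a TNF receptor gene, had -0.89 ± 0.26 (-0.57 without isotype 3) and 1.47 ± 0.26, and the clock gene Per1 -0.38 ± 0.23 and 1.64 ± 0.23. Maff, an immediate-early transcription factor gene, had -0.51 ± 0.19 and 1.04 ± 0.19, and Sgk1 1.37 ± 0.31 with the agonist. Their levels in agoCD40 were the lowest of the 4 groups for Ddit4, Gadd45g, Tsc22d3, Tnfrsf1b, Per1 and Sgk1 by group mean.

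**Figure D5:**
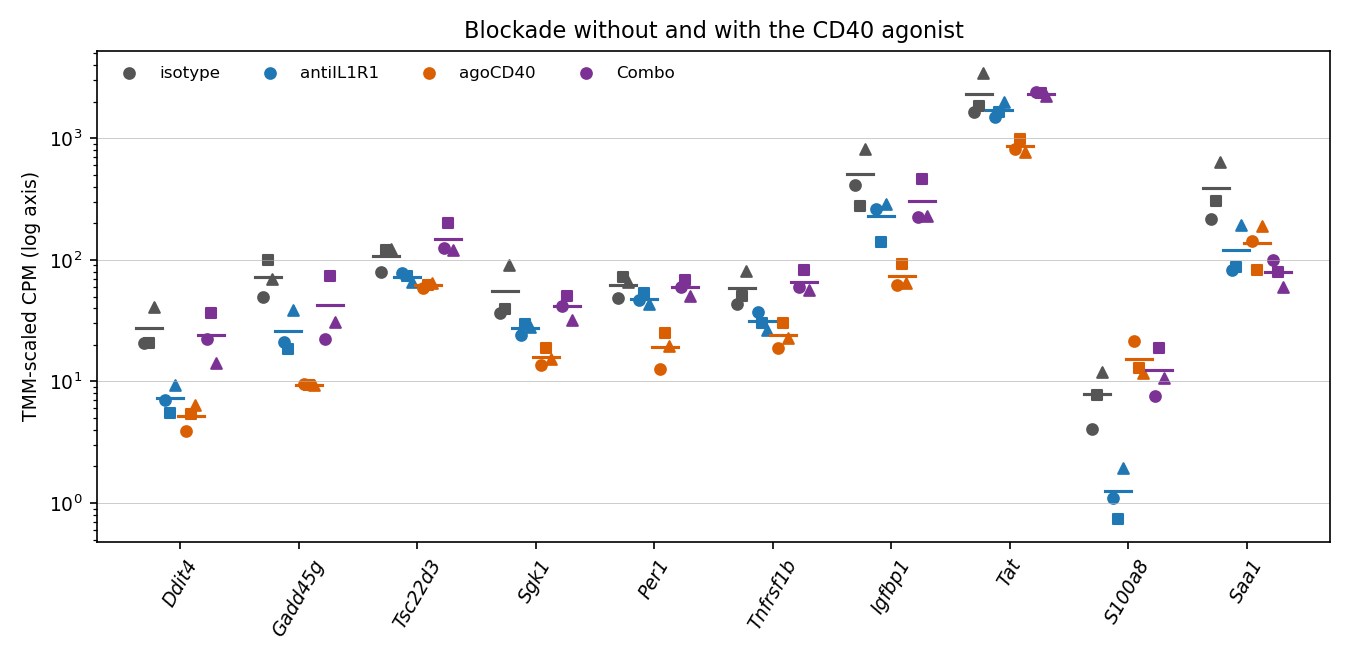
TMM-scaled CPM (log axis) of 10 genes in each library of the 4 groups (isotype grey, antiIL1R1 blue, agoCD40 orange, Combo purple), marker shape by library number and a bar at the group mean. For Ddit4 the antiIL1R1 libraries (5.51 to 9.29 CPM) lie below isotype, and the Combo libraries (14.3 to 36.3) lie above agoCD40, while S100a8 is lowest in antiIL1R1.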

How the data were processed

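RNA was measured in 12 liver libraries, placed in groups by the sample titles, with table columns matched by library name. The authors deposited estimated counts that are unscaled between libraries and partly not whole. The authors also deposited TPM, values scaled for gene length and depth. Per the submitters' processing notes the build was GRCm39 and the tools were FastQC 0.12.1, Trim Galore 0.6.7, cutadapt, STAR, SAMtools 1.16.1, RSEM 1.3.1, bedtools 2.30.0, StringTie 2.2.1, Picard 3.0.0 and DESeq2 1.28.0. Their roles are not given in the sources used. The deposited tables are named for salmon, which those notes do not list, so the tool behind the counts is uncertain.

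The counts were rounded and analysed in R 4.3.3 with edgeR 4.0.16: filterByExpr (minimum count 10), TMM, 1 fit of all 12 libraries with a mean per group, and the quasi-likelihood F test with Benjamini-Hochberg adjustment over 15465 genes at 0.05. DESeq2 1.42.0 and limma 3.58.1 on log2(TPM + 1) and log2(TPM + 0.1) were alternatives, beside RLE and total-count scaling, no low-count filter, the replicate number as a block, a fit of only the groups compared, the mitochondrial percent as a covariate, and leaving out each library or both libraries numbered 2. The fit was tested on simulated data. Log2 CPM for components and correlations used a prior count of 2. The 95% intervals of counting ratios cover counting error only, with a floor of 3 counts over a group.

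The 30 gene lists hold 833 genes, 826 of them in the table and 745 tested, with 41 in more than 1 list; they are described by counts and medians, with no list test. Comparison, lists and rules were chosen with earlier results of these data known. The naming rule allowed the 10 largest fold changes in each direction, from genes of at least 1 CPM with no overlap and an unadjusted p under 0.05, without predicted genes or receptor segments. For those genes the lack of overlap was thus a condition of being named. To these it added the 4 members of each list with the smallest p, all tested IL-1 ligands and receptors, the cell type markers, genes that DESeq2 called, and the 5 smallest p of the difference of effects. Saa2, Hp, Lcn2, Cxcl1, Nfkbia, Noct, Ngp, Mpo, Camp, Ighg2c and Il1r2 fall outside the rule and were picked after their values were seen. Promoters are from RefSeq (GRCm38.p6).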

Additional observations from a re-analysis of the deposited data

Results flagged for a closer look

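The effect of the blockade on Ddit4 differed between livers without and with the agonist: Combo minus agoCD40 less antiIL1R1 minus isotype was 4.13 on the log2 scale (adjusted p = 0.0422 in edgeR's quasi-likelihood test of the difference itself). All 3 antiIL1R1 libraries were below all 3 isotype libraries, and all 3 Combo libraries were above all 3 agoCD40 libraries. Ddit4 was chosen by the p of this difference, so these separations are partly built into the choice. Over all alternatives the difference stayed between 3.71 and 4.4. With single libraries left out, the adjusted p of edgeR's quasi-likelihood test ran from 0.017 to 0.237 and mostly lay above the threshold. The adjusted p was 3.9e-11 with DESeq2, 0.0387 with RLE scaling and 0.0390 with the mitochondrial percent as a covariate, against 0.0785 with total-count scaling, 0.0920 with the replicate number as a block, 0.169 on log2(TPM + 1) and 0.145 on log2(TPM + 0.1). The cause was not tested.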

How the results depend on the processing

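In antiIL1R1 against isotype the count of called genes was 3 with DESeq2 and 63 without the low-count filter. Genes at an unadjusted p under 0.05 numbered 1169 without the filter, 279 with only the groups compared, 959 without isotype 2 and antiIL1R1 2 together, and 377 to 2001 with single libraries left out. On log2(TPM + 1) they split into 121 higher and 352 lower. The neutrophil median was -0.42 on log2(TPM + 1), -0.85 without isotype 2 and antiIL1R1 2 together, and -2.07 to -0.46 with single libraries left out. Of the medians of the 30 lists, 14 changed sign under some alternative. Combo against agoCD40 gave 85 calls with DESeq2, 197 without the filter, 4 with only the groups compared, 11 with the mitochondrial percent as a covariate, and 0 to 4 with single libraries left out. The difference of effects gave 82 calls with DESeq2, 232 without the filter, 3 with the mitochondrial percent, 0 with total-count scaling, 0 in limma on either TPM scale, 0 without isotype 2 and antiIL1R1 2 together, and 0 to 13 with single libraries left out. The causes were not tested.

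Same-numbered isotype and antiIL1R1 libraries had correlations of their deviations of 0.401, 0.406 and 0.0564. The 6 pairs of other numbers ran from -0.438 to 0.166 (median -0.193), so the libraries numbered 1 and 2 were more alike across these groups. Over all 4 groups the median was -0.03 for the same number and 0.03 for other numbers. Not every library correlated best with its own number, and the labels do not say what it marks, so the numbers were not taken as pairs in the main fit. With the replicate number as a block, 0 genes were called in antiIL1R1 against isotype, 443 had an unadjusted p under 0.05, Combo against agoCD40 gave 2 calls and the difference 0.

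Of 95 genes, 11 changed sign under some alternative. Sigirr, near 0, had 0.00717 with RLE scaling, 0.00893 with DESeq2, 0.0159 without the filter, 0.0123 with only the groups compared, 0.0144 without isotype 2 and antiIL1R1 2 together and -0.0521 to 0.0420 with single libraries left out. On log2(TPM + 1) and log2(TPM + 0.1) Il18rap had -0.0717 and -0.211, and Lss -0.0803 and -0.0862. Cxcl1 had -0.0330 with the mitochondrial percent and Il33 0.121 without isotype 2 and antiIL1R1 2 together. With single libraries left out, Cxcl1 ranged from -0.0868 to 0.606, Il33 from -0.276 to 0.0798, Il1rn from -1.05 to 0.292, Il1rap from -0.0253 to 0.238, Il18bp from -0.406 to 0.0194, Il1rl2 from -0.977 to 0.330, Nlrp3 from -0.983 to 0.0344 and Nfkb2 from -0.746 to 0.0378.

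Depth limited neutrophil granule, plasma-cell and Il1r2 values: Mpo had 7 counts in isotype, Ngp 27 and Jchain 31.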

Other observations

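Cell-cycle genes had a median fold change of -0.24, with 21 of 31 tested negative and 2 lower and 0 higher at an unadjusted p under 0.05. Their library levels ran from -0.50 to 0.49 in isotype and from -0.50 to -0.09 in antiIL1R1, so the treated libraries lay inside the control range, and the median was 0.02 without isotype 3. Blood and red-cell genes had a median of 0.01 (7 of 14 negative), which ran from -0.31 to 0.65 over the alternatives, the latter without isotype 3. Immediate-early genes, transcription factors induced within minutes of a stimulus, had a median of -0.15, with 18 of 27 negative and 2 lower and 0 higher at that p. With the agonist their median was 1.05, with 25 of 27 positive, and antiIL1R1 2 was the lowest of the 6 libraries without it (-0.64).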
